A study of Mus musculus with 2 samples.

Results

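The genes described here are 9 transcription factors that direct or stabilise the fates of CD4+ helper and effector T cells: Tbx21, Gata3, Rora, Bcl6, Prdm1, Maf, Batf, Irf4 and Zeb2. They were taken by gene symbol, each symbol matched 1 row, and they make up 9 of the 23282 rows of the table. Naïve CD4+ T cells from spleens of wild-type female C57BL/6 mice aged 7 to 10 weeks were activated with plate-bound anti-CD3ε (5 μg/ml) and soluble anti-CD28 (2 μg/ml). They were cultured for 1 day with IL-2 (1 ng/ml), TGF-β1 (5 ng/ml) and antibodies that neutralise IFN-γ and IL-4 (10 μg/ml each), in both groups alike. IFN-γ and IL-4 are the cytokines that feed the Th1 and Th2 programmes. The control culture received DMSO and the other culture received 10 μM Tubastatin A, an inhibitor of the deacetylase HDAC6 that is abbreviated TSA here and is a different compound from trichostatin A. Total RNA of 1 culture of each kind was sequenced, so there is 1 library per group, no difference below has a replicate check, and no test between the groups was possible. The sources used here name no sort for Foxp3 before RNA isolation, so the RNA comes from all cells of each culture.

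Each helper fate is built around a factor that opens its own programme and closes the others. T-bet, encoded by Tbx21, drives Th1 cells and GATA3 drives Th2 cells. RORα, encoded by Rora, acts in Th17 cells, and BCL6 drives follicular helper (Tfh) cells. Blimp-1, encoded by Prdm1, and BCL6 repress each other, and Blimp-1 marks terminal effector cells and effector Treg cells. BATF and IRF4 bind together at composite sites after T cell receptor signalling and prepare chromatin for the lineage factors, c-MAF supports Il10, Il4 and Il21, and ZEB2 acts with T-bet in terminal effector cells. Several of these factors also work inside Treg cells, where they shape effector Treg subsets.

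The libraries held 10845868 reads on genes in the control and 10432698 in the TSA culture. Per the labels, the cells were T lymphocytes, and the CD4+ T cell markers were abundant in both: Cd4 had 2434 and 2549 reads in control and TSA, and all 11 markers found in the table had reads in both libraries. Foxp3, the factor that defines Treg cells, gave 1633 control reads and 965 TSA reads, a ratio of 0.585 (95% interval 0.5398 to 0.634). In RNA from whole cultures, fewer cells of a type and less RNA per cell cannot be told apart. The TSA library also stood higher than the control among weakly expressed genes. The median log2 fold change was 0.26 for genes with a mean normalized count of 20 to 100, 0.008 from 100 to 500 and -0.11 at 500 or more. The factors are therefore set beside genes of their own level in what follows.

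Sequence around the start sites was examined first, because several of these factors are known to act on each other's genes. RefSeq start sites on GRCm38.p6 were matched for 8 of the 9 genes, with 12 promoters in all (250 bases before to 50 bases after each start), and both strands were searched for 1 motif per factor. The promoters below are shown because they hold the BCL6 motif (TTCNNNGAA) at the gene of BCL6 itself, or the AP-1 element bound by BATF with JUN proteins (TGANTCA), and capitals mark the motif matches, including a ZEB E-box (CACCTG) read on the opposite strand in Prdm1. Each runs 5′ to 3′ in the direction of the gene, and all are on the minus strand.
Bcl6, upstream start (chr16:23988803-23989102): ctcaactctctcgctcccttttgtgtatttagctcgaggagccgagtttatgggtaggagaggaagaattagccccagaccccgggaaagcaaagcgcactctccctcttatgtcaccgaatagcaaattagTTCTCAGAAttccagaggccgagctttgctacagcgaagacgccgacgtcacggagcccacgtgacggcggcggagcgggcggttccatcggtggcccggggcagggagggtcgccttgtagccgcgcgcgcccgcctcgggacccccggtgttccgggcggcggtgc
Bcl6, downstream start (chr16:23981234-23981533): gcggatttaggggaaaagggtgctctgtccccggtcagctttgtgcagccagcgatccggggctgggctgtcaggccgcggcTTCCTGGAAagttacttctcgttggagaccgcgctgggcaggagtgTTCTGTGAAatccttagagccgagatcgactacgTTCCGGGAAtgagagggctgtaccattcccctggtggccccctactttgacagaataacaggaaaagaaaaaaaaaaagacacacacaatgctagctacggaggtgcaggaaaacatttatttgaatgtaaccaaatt
Prdm1 (chr10:44458699-44458998): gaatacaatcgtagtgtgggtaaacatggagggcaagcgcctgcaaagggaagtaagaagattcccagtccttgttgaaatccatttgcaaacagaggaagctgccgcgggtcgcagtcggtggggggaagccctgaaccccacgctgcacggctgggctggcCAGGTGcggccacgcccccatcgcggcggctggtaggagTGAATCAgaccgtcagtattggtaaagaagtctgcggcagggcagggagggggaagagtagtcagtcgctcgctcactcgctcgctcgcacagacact
Zeb2, most downstream start (chr2:45110228-45110527): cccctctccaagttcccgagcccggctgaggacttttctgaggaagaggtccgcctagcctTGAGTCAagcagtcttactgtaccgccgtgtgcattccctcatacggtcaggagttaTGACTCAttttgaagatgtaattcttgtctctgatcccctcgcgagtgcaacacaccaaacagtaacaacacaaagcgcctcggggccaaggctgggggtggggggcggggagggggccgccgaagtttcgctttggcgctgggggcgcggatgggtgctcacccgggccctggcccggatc

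Both Bcl6 promoters held the BCL6 motif, with 1 match 118 bases before the upstream start and 3 matches before the downstream start. Over all 32851 promoters of the same length, 8.3% held this motif, against 4 of the 12 promoters here, of which 2 are overlapping Zeb2 promoters that share 1 match. The AP-1 motif was found in 2 of the 12 promoters, with 2 matches in Zeb2 and 1 in Prdm1, and in 7.81% of all promoters. The ZEB E-box was found in Prdm1 and Tbx21 (20.2% of all promoters), and the GATA motif (AGATAA) in Batf (11.2%). No match was found in these windows for the T-box (AGGTGTGA), ROR (TAGGTCA), MAF (TGCTGAC), IRF and PRDM1 motifs, the last of which is a special case of the IRF motif. Such matches describe the letters and do not show binding. A match to the BCL6 pattern also does not show that BCL6, rather than another protein, would bind there.

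All 9 factors had at least 10 reads in 1 or both libraries and entered the comparison. The libraries were prepared with QuantSeq, which reads the 3′ end of each polyadenylated transcript, so that a transcript gives about 1 read whatever its length and the levels of genes can be compared as reads. Levels are given as CPM, the reads of a gene scaled to the library total. In the control library the order ran from Irf4, with 615.4 CPM, through Tbx21 (182.0), Maf (109.9), Rora (57.1), Gata3 (47.9) and Batf (33.4) to Prdm1 (4.79), Bcl6 (3.78) and Zeb2 (1.20). In the TSA library the first 6 genes kept this order, with Irf4 at 1030 CPM, Tbx21 at 229.5, Maf at 163.5, Rora at 67.5, Gata3 at 53.6 and Batf at 25.9, followed by Bcl6 at 5.85, Prdm1 at 4.31 and Zeb2 at 4.12. Irf4 alone held 58.3% of the reads of the 9 genes in the control and 65.0% in the TSA library. Neighbours in the order differed beyond counting error, with the exception of Prdm1 and Bcl6 in both libraries and of Prdm1 and Zeb2 in the TSA library. The BATF partner IRF4 and the Th1 factor were thus the most abundant transcripts of the group, and the Tfh, Blimp-1 and ZEB2 transcripts lay far below them.

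**Figure D1:**
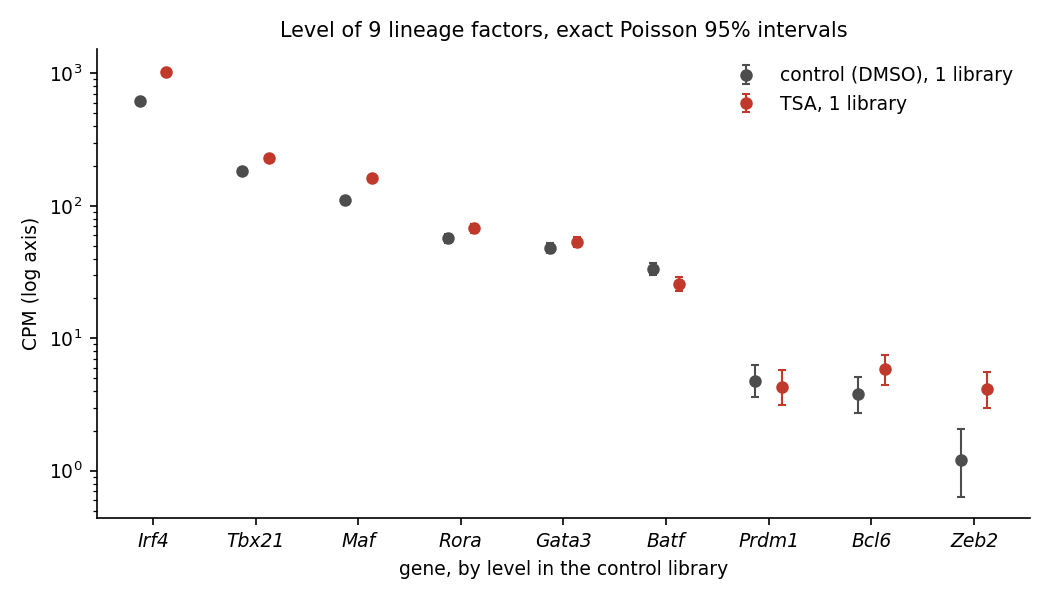
Level of the 9 factors in CPM on a log axis, with 1 point per library (grey, control; red, TSA) and exact Poisson 95% intervals that cover counting error only. The genes span from 615.4 to 1.20 CPM in the control library, and the gap between the libraries is widest for Zeb2.

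Across the group, 7 of the 9 factors were higher and 2 were lower in the TSA library, where 51.3% of all tested genes were higher at any size, with a median log2 fold change of 0.26 against 0.015 for all 12164 genes tested. Zeb2 was the single factor past 2-fold, and it was higher; 11.5% of all tested genes were past 2-fold in that direction, so 1 of 9 is no more than the background. No factor was past 2-fold in the lower direction, where 3.15% of all tested genes lay. Most factors had enough reads to resolve smaller differences. The 95% counting interval of the ratio lay above 1 for 5 of the 9 (Tbx21, Rora, Maf, Irf4 and Zeb2), against 28.1% of all tested genes. It lay below 1 for Batf alone, against 28% of all tested genes, and it held 1 for Gata3, Bcl6 and Prdm1. Of the 5 factors whose mean normalized count reached 500, 4 had an interval above 1, while 20.8% of the 3962 genes of that level did and 48.5% had an interval below 1.

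**Figure D2:**
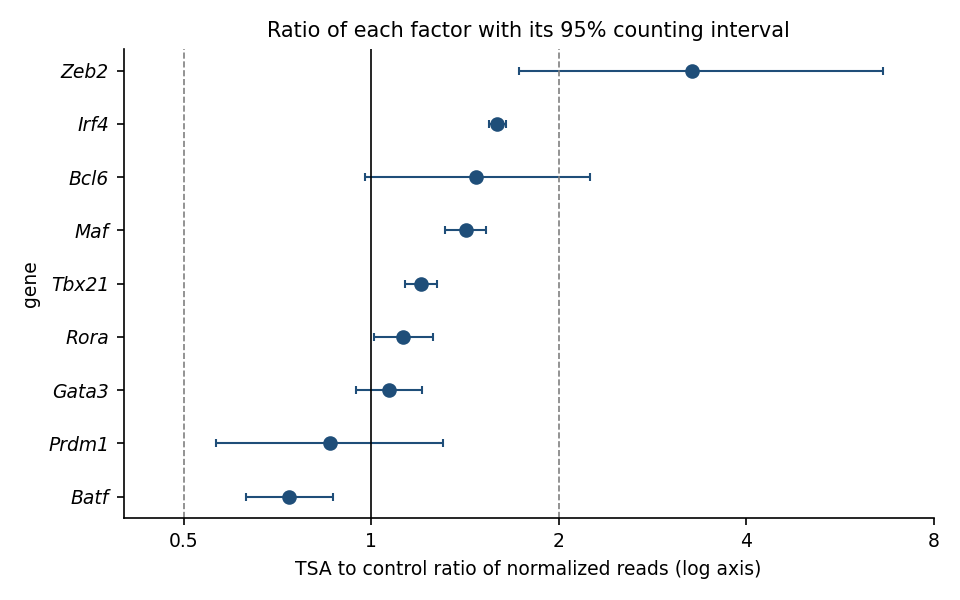
Ratio of normalized reads, TSA over control, for each factor on a log axis, with exact Clopper-Pearson 95% intervals; the solid line marks no difference and dashed lines mark 2-fold. Zeb2 lies at 3.28 with a wide interval, Irf4 at 1.59 with a narrow one, and Batf at 0.739 is the factor whose interval lies below 1.

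Among the factors that respond to T cell receptor signalling, Irf4 and Batf differed in opposite directions. Irf4, on chromosome 13 from 30749226 to 30766976 of GRCm38, gave 6675 control reads and 10749 TSA reads. Its ratio was 1.59 (1.55 to 1.64) and its deposited log2 values were 12.71 and 13.39. In the class of genes with a mean normalized count of 500 or more, 37 of 3962 genes, Irf4 included, had a log2 fold change as high as its 0.67. Batf, on chromosome 12 from 85686669 to 85709087, had 362 reads in the control and 270 in the TSA library, a ratio of 0.739 (0.6285 to 0.867). This was the one factor whose lower value in the TSA library exceeded counting error, and 12.5% of the genes of its level (mean normalized count 100 to 500) were at or below its log2 fold change of -0.44. Within each library, where no scaling enters, there were 5.42 reads of Batf for every 100 of Irf4 in the control and 2.51 in the TSA library, so that the ratio of the partners was 0.463 times (0.393 to 0.545) that of the control.

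The relatives of these factors did not follow a common direction. Irf8, the IRF gene with the most reads, had 35432 and 34019 reads in control and TSA, a ratio of 0.951 (0.937 to 0.965), and Irf4 relative to Irf8 was 1.68 times (1.62 to 1.74) higher in the TSA library. Of the 9 IRF genes tested, Irf4 included, 4 had an interval above 1 and 2 below, against 28.1% and 28% of all tested genes. Of the 6 IRF genes at 500 or more normalized counts, 3 were above and 2 below, where the shares were 20.8% and 48.5%. Batf3, the closest relative of Batf, had 28 and 24 reads, a ratio of 0.849 (0.471 to 1.52), too few to tell whether it moved like Batf. Among 10 tested AP-1 and NFAT genes that act with BATF and IRF4, 4 had an interval below 1 and 2 above, with a median log2 fold change of -0.052. The shares of all tested genes were 28% below and 28.1% above. Of the 4 listed genes at 500 or more normalized counts, 2 were below and 1 above. The JUN partners of BATF with the most reads were lower in the TSA library: Jund had 3395 and 2707 reads and Junb 2545 and 2136 reads. Both lie at 500 or more normalized counts, where 48.5% of all tested genes had an interval below 1. Jun, of the same level, had 625 and 674 reads, a ratio of 1.07 (0.956 to 1.19) that was not lower. These JUN genes were named after their values were seen. Fos was past 2-fold with 4 and 12 reads, and its interval of 0.9003 to 12.6 held 1. It passed the filter of 10 reads through the TSA library alone, which fixed its direction.

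Tbx21, the Th1 factor, lies on chromosome 11 from 97098071 to 97115331. It gave 1974 control reads and 2394 TSA reads, a ratio of 1.20 (1.13 to 1.28). At its level 9.14% of genes were at or above its log2 fold change of 0.26. Gata3, the Th2 factor on chromosome 2 from 9857078 to 9890034, had 519 and 559 reads, a ratio of 1.07 with an interval of 0.945 to 1.20 that held 1. The interval also held 1 with total-read scaling (1.12, 0.992 to 1.26), and it lay above 1 when total reads were taken without the ribosomal RNA precursor Rn45s (1.13, 1.002 to 1.28). The balance of the Th1 and Th2 factors, 3.80 reads of Tbx21 per read of Gata3 in the control and 4.28 in the TSA library, differed 1.13-fold, and the interval of 0.983 to 1.29 held no difference. Eomes, the T-box gene nearest to Tbx21 in function in T cells, had 30 and 40 reads, and its ratio of 1.32 (0.802 to 2.20) was not resolved at this depth.

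The genes these factors control in helper cells were set beside them. Among 12 tested Th1 genes, 3 had an interval above 1 and 4 below, none was past 2-fold, and their log2 fold changes had a median of 0.069. The shares of all tested genes were 28.1% above and 28% below. Runx3, which acts with T-bet, had 2578 and 2912 reads and a ratio of 1.12 (1.06 to 1.18), and Ccl3, a chemokine of effector cells, had 438 and 237 reads and a ratio of 0.536 (0.4555 to 0.629). Both were named after their values were seen. The 11 tested Th2 genes had a median of -0.15. The interval lay above 1 for 2 of them and below 1 for 4, against 28.1% and 28% of all tested genes. Il4, the cytokine of Th2 cells, had 1 read in the control and 14 in the TSA library, a ratio of 13.9 with an interval of 2.11 to 586. Epas1, encoding a hypoxia-inducible factor, had 2 and 21 reads, a ratio of 10.4 (2.54 to 91.5). Ccr4, a chemokine receptor of Th2 and Treg cells, had 204 and 41 reads, a ratio of 0.199 (0.139 to 0.279). Il4 and Epas1 had a mean normalized count under 20, where 52% of the 1610 tested genes were past 2-fold and higher and 45.7% had an interval above 1. Both passed the filter of 10 reads through the TSA library alone, so the filter fixed their direction. The members past 2-fold of the Th2 list lay on both sides, but the higher side was Il4 and Epas1.

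Rora, on chromosome 9 from 68653786 to 69388246, had 619 reads in the control and 704 in the TSA library. Its ratio of 1.13 had an interval of 1.009 to 1.26, so that the difference was barely beyond counting error, and 15.8% of the genes of its level were at or above its log2 fold change. Rora relative to Gata3 was 1.06 times (0.896 to 1.25) that of the control, an interval that holds no difference. Of 9 tested Th17 genes, 4 had an interval above 1 and 4 below, against 28.1% and 28% of all tested genes. Ccr6, the chemokine receptor of Th17 cells, was far lower in the TSA library, with 502 and 85 reads and a ratio of 0.168 (0.132 to 0.211). Il17f, a Th17 cytokine, was higher, with 17 and 42 reads and a ratio of 2.45 (1.36 to 4.58), at a level (20 to 100) where 18.6% of genes were past 2-fold and higher.

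Maf lies on chromosome 8 from 115682942 to 115707794 and had 1192 reads in the control and 1706 in the TSA library. The ratio was 1.42 (1.32 to 1.53), and 2.55% of the genes of its level were at or above its log2 fold change of 0.50. The small MAF proteins, which lack the activation domain of c-MAF, gave a mixed picture: Mafg had 623 and 848 reads, a ratio of 1.35 (1.21 to 1.497), and Mafk had 412 and 421 reads, a ratio of 1.012 (0.881 to 1.16). Maf relative to Mafk was 1.40 times (1.20 to 1.64) that of the control. Relative to Mafg, a pair added after the values were seen, it was 1.05 times, with an interval of 0.924 to 1.196 that held no difference. Il10, a known target of c-MAF, had 12 and 51 reads, a ratio of 4.21 (2.21 to 8.67), and Entpd1, which encodes the ectoenzyme CD39 of Treg cells, had 68 and 207 reads, a ratio of 3.01 (2.28 to 4.03). Il10 lies in the class of 20 to 100 normalized counts, where 18.6% of genes were past 2-fold and higher, and Entpd1 in that of 100 to 500, where 2.65% were. These were the members past 2-fold among 13 tested effector Treg genes, of which 4 had an interval above 1 and 4 below, with a median log2 fold change of -0.028. The shares of all tested genes were 28.1% above and 28% below. Of the 6 at 500 or more normalized counts, 2 were above and 3 below, where the shares were 20.8% and 48.5%.

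The repressor pair Bcl6 and Prdm1 rested on few reads. Bcl6, on chromosome 16 from 23965052 to 23988852, had 41 reads in the control and 61 in the TSA library, a ratio of 1.47 (0.976 to 2.25). Prdm1, on chromosome 10 from 44437177 to 44528501, had 52 and 45 reads, a ratio of 0.857 (0.562 to 1.30). Neither differed from no change beyond counting error as deposited, although Bcl6 had an interval above 1 under upper-quartile and under total-read scaling. For every 100 reads of Bcl6 there were 126.8 of Prdm1 in the control and 73.8 in the TSA library, so that their order was exchanged, but the interval of the change in this ratio, 0.319 to 1.06 around 0.582, held no difference. Bach2, a repressor of Prdm1 and of effector fates that is high in naïve T cells, outnumbered both, with 4493 and 5141 reads and a ratio of 1.13 (1.09 to 1.18). There were 1.16 reads of Prdm1 per 100 of Bach2 in the control and 0.875 in the TSA library, and 0.9125 and 1.19 reads of Bcl6. Neither ratio differed beyond counting error.

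Among 12 tested Tfh genes, 6 had an interval above 1 and 4 below, none was past 2-fold, and their log2 fold changes had a median of 0.19. Over all tested genes, 28.1% had an interval above 1 and 28% below. Of the 6 Tfh genes at 500 or more normalized counts, 4 were above and 2 below, where the shares were 20.8% and 48.5%. Of the PRDM family, Prdm1 included, 8 genes were tested. The interval lay below 1 for 4 of them and above 1 for 1, against 28% and 28.1% of all tested genes. Prdm2, the member with the most reads, had 1460 and 1013 reads, a ratio of 0.687 (0.6335 to 0.745). At its level, 500 or more normalized counts, 48.5% of all tested genes had an interval below 1.

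Zeb2, on chromosome 2 from 44983632 to 45117395, had the fewest reads of the 9 factors and the largest ratio. It had 13 reads in the control and 43 in the TSA library, a ratio of 3.28 (1.73 to 6.64) and a log2 fold change of 1.64 on the deposited scale, which adds 1 count to each value. Its level is one where the TSA library was high in general. Of the 2366 genes with a mean normalized count of 20 to 100, 18.6% were past 2-fold and higher, and 7.48% were at or above the log2 fold change of Zeb2. Zeb1, its paralog, which is expressed in naïve and memory T cells, had 579 and 634 reads, a ratio of 1.08 (0.967 to 1.22). Zeb2 relative to Zeb1 was 3.02 times (1.57 to 6.18) that of the control. Zeb2os, a transcript annotated on the opposite strand that touches an exon of Zeb2, had 4 and 15 reads, and whether the authors counted by strand is not given in the sources used here, so reads of the pair may not be fully told apart.

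ZEB2 is also made by myeloid cells, dendritic cells and B cells, and some markers of these cells had reads in both libraries. The starting T cells had been purified from spleen with a MojoSort kit for naïve CD4+ T cells, a method that depletes such cells. The 12 myeloid markers together had 124 reads in the control and 182 in the TSA library (11.4 and 17.5 CPM), with Csf1r at 9 and 2 reads, Lyz2 at 6 and 10, S100a9 at 0 in both and Ly6c2, which T cells can also express, at 60 and 115, a ratio of 1.90 (1.38 to 2.64). The 10 B cell markers had 50 and 97 reads, with Pax5 at 0 in both, Ebf1 at 1 and 12 reads, Cr2 at 34 and 64 and Cd79b at 11 and 4. The 10 dendritic cell markers had 565 and 591 reads, with Siglech and Clec9a at 0 in both, Zbtb46 at 2 and 11, Flt3 at 0 and 33 and H2-Ab1 at 42 and 157, while Bst2 had 343 and 236 reads and Cd74 had 113 and 85. Of the 6 dendritic cell markers tested, 3 had an interval above 1 and 2 below, against 28.1% and 28% of all tested genes. The CD8 and NK cell markers had 230 and 232 reads and the erythroid markers 43 and 58, with Hbb-bs at 4 and 17. Lyz2, Ebf1, Zbtb46, Flt3 and Hbb-bs passed the filter of 10 reads through the TSA library alone, so the filter fixed their direction. Cd79b passed it through the control library alone. Csf1r, Lyz2, S100a9, Ly6c2, Pax5, Cr2, Siglech, Clec9a, Bst2 and Cd74 were named after their values were seen. The part of such cells in the Zeb2 reads was not tested.

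Prdm1 and Zeb2 were also targets of qRT-PCR in this study, whose values were not analysed here. The primers are shown because they place these assays on the transcripts that QuantSeq reads from the 3′ end. The primers were placed on GENCODE M21 transcripts by exact match, and they are written 5′ to 3′ in lower case, with no part marked.
Prdm1 forward: aagacgttcggtcagctctcca
Prdm1 reverse: ctggcactcatgtggcttctct
Zeb2 forward: attgcacatcagactttgaggaa
Zeb2 reverse: ataatggccgtgtcgcttcg

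The Prdm1 primers matched 3 of its 4 annotated transcripts, spanned 159 bases from exon 6 to exon 7 of the longest, and ended 3066 bases before its 3′ end, and at the nearest 576 bases before the end of a matched transcript. The Zeb2 primers matched 10 of its 29 annotated transcripts, spanned 109 bases within exon 6 of 11 of the longest, and ended 8065 bases before its 3′ end. Over its matched transcripts this distance went down to 99 bases. The reads reported here come from the 3′ ends and count every isoform that shares an end.

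**Figure D3:**
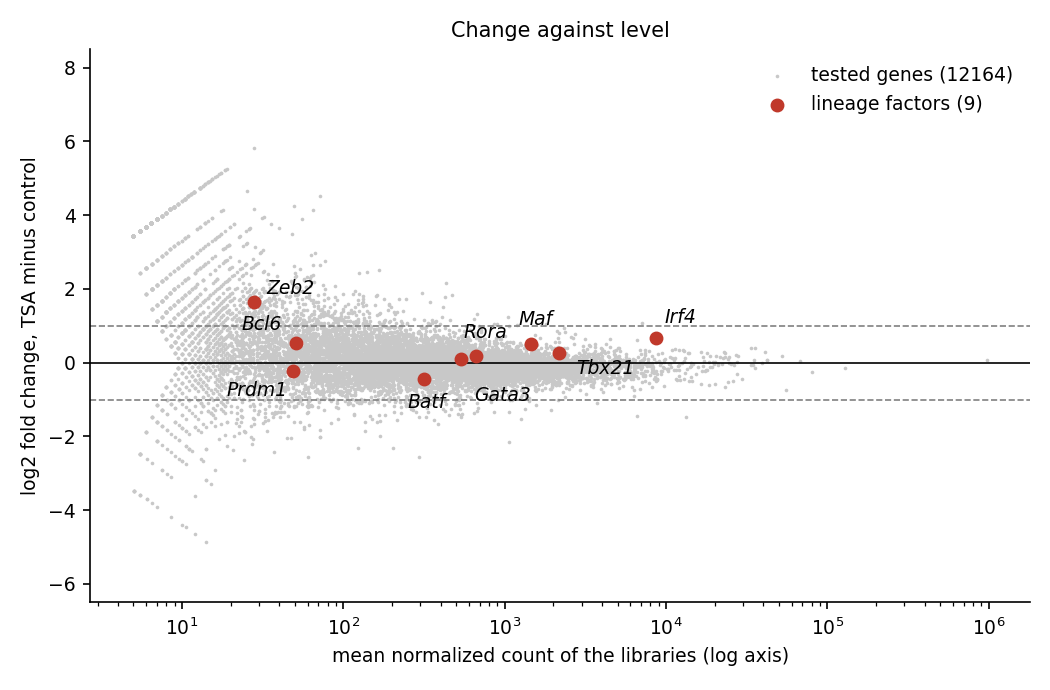
Log2 fold change (deposited TSA value minus deposited control value) against the mean normalized count of the libraries on a log axis, for the 12164 genes tested (grey) and the 9 factors (red); dashed lines mark 2-fold. Irf4 and Maf lie along the upper edge of the genes of their level, whereas Zeb2 lies among widely scattered genes.

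Since Foxp3 was lower in the TSA library, each factor was also set against Foxp3 within its own library. All 9 ratios share the reads of Foxp3. A gene with no difference between the libraries would show a factor of 1.71, which rests on the same Foxp3 reads and has an interval of 1.58 to 1.85. The values below therefore describe the balance of transcripts and add nothing on the factors' own levels. There were 4.09 reads of Irf4 per read of Foxp3 in the control and 11.1 in the TSA library, a factor of 2.73 (2.50 to 2.97). For Tbx21 the ratio went from 1.21 to 2.48, a factor of 2.05 (1.86 to 2.27). Maf had fewer reads than Foxp3 in the control, 0.7299 per read of Foxp3, and more in the TSA library, 1.77 per read. The intervals of Gata3 (1.58 to 2.11), Rora (1.68 to 2.21), Bcl6 (1.65 to 3.87) and Prdm1 (0.952 to 2.24) held the value of 1.71. These intervals also carry the counting error of Foxp3, so holding 1.71 does not show that a factor was unchanged. For Rora, the interval of its own ratio (1.009 to 1.26) lay above 1. The interval of Zeb2 to Foxp3 (2.93 to 11.4) lay above 1.71, and Batf, at 1.26 (1.05 to 1.51), lay below 1.71.

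**Figure D4:**
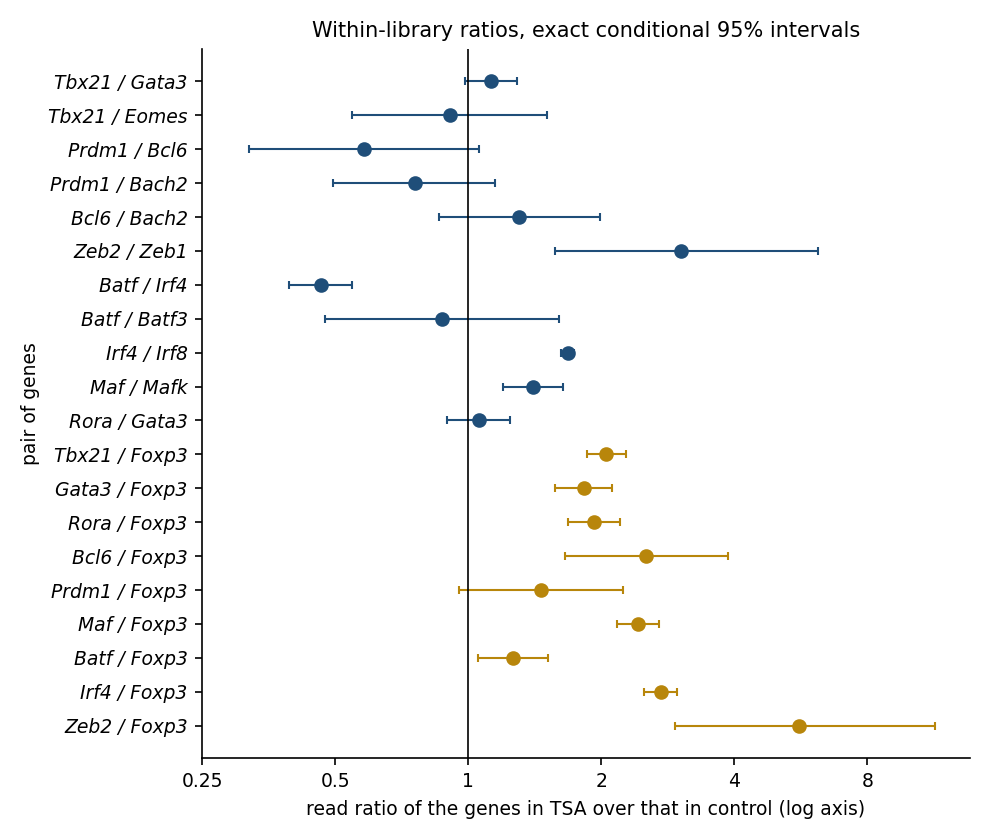
Read ratio of each pair of genes in the TSA library divided by that in the control library, on a log axis, with exact conditional 95% intervals; ratios to Foxp3 are in gold and other pairs in blue. The Batf to Irf4 ratio lies at 0.463, below 1. The ratios to Foxp3 are to be read against 1.71 (interval 1.58 to 1.85), the value of a gene with no difference.

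Of the 7 Treg markers set beside the factors, 5 had an interval below 1 and 1 above, with a median log2 fold change of -0.25. Of the 6 whose mean normalized count reached 500, 4 had an interval below 1, at a level where 48.5% of all tested genes did. Nrp1, encoding neuropilin-1, was past 2-fold and lower, with 576 and 281 reads and a ratio of 0.483 (0.417 to 0.558). The helper gene lists had medians between -0.24 for Th17 genes and 0.19 for Tfh genes, so the median of the 9 factors, 0.26, lay above the median of each helper list. The 11 CD4+ T cell markers had a median of 0.13.

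**Figure D5:**
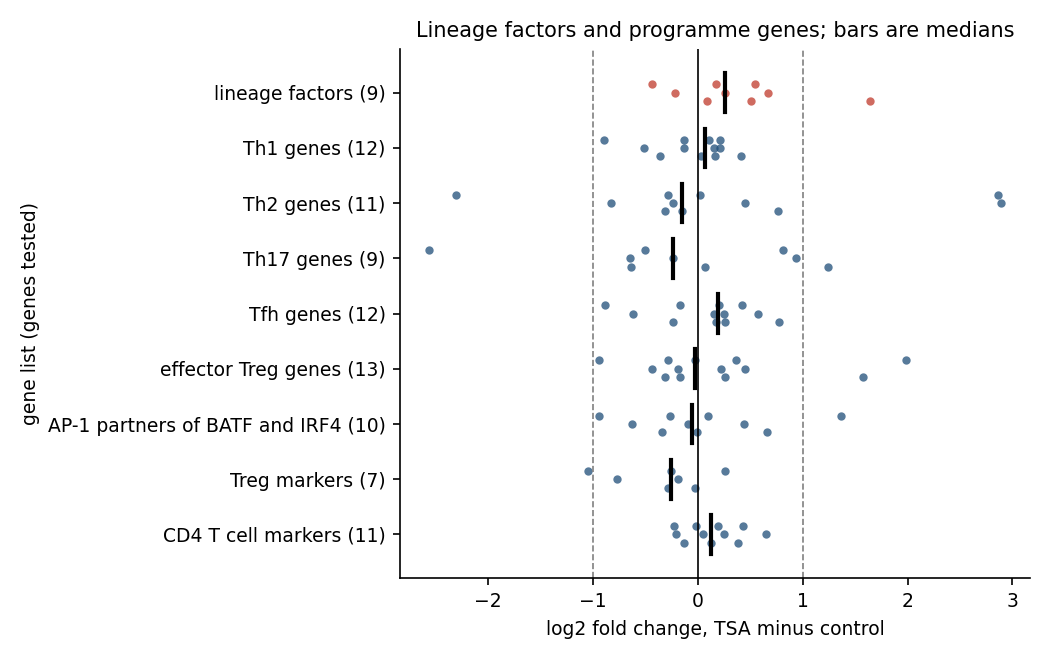
Log2 fold change of each tested gene (points) in the 9 factors (red) and in lists of genes tied to helper, effector Treg and general CD4+ T cell programmes (blue), with the median as a bar; the number of genes tested is in parentheses and dashed lines mark 2-fold. The factors have a median of 0.26, and the genes past 2-fold in the Th2 list fall on both sides.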

How the data were processed

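RNA-seq of 1 control (DMSO) and 1 TSA library was analysed. The authors prepared QuantSeq 3′ libraries and sequenced single-end 75-nt reads, and the submitters' processing notes name Bowtie2, bedtools and the mm10 build. The deposited values are log2 of a normalized count plus 1, and the authors' scaling method is not given in the sources used here. Reads were recovered from the steps of low values (1 read was worth 1.005 normalized counts in the control and 0.9951 in TSA), and 99.7% and 99.9% of values from 1 to 300 reads lay within 0.1 of a whole number. Above that, rounding of the deposited log2 value leaves an uncertainty that grows with the count, up to 3.73 reads among the 9 factors (Irf4) and more for genes with more reads, such as Irf8. In the control, 1940 rows listed at up to 0.016 were read as 0 reads.

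The log2 fold change of a gene was its value in TSA less its value in control. Ratios are of normalized reads, with exact Clopper-Pearson 95% intervals, and within-library ratios have exact conditional intervals; all cover counting error only, since PCR copies cannot be told apart. Genes with at least 10 reads in 1 library were tested against 2-fold. A count of 3 reads corresponds to 0.277 CPM in control and 0.288 in TSA. Steps were tested on simulated data. The factors and gene lists were chosen with earlier results of these data known. Named genes are the factors, their most abundant relatives, the paired genes, and list members past 2-fold; all others were named after their values were seen. Some genes that this rule covers are not reported here. Positions are from GENCODE M21 (GRCm38, the same assembly as mm10) and promoters from RefSeq (GRCm38.p6). Python 3.11.15, numpy 2.4.6, scipy 1.17.1 and pandas 2.3.3 were used.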

Additional observations from a re-analysis of the deposited data

How the results depend on the processing

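No paired analysis was possible because each group had 1 library, and no library could be left out. The log2 fold change of each of the 9 factors kept its sign under the 5 scalings that gave other values than those deposited. Trimmed-mean scaling gave the deposited values to 3 decimals, and a pseudocount cannot turn a sign, so neither bears on this. The count of factors past 2-fold and higher, 1 as reported, was 0 when the mean normalized count had to reach 50, 0 when the whole 95% interval had to lie beyond 2-fold and 2 with a 1.5-fold threshold. The count of factors whose interval lay above 1, 5 as reported, was between 4 and 7 under the alternatives. Upper-quartile and total-read scaling added Bcl6, total reads without the ribosomal RNA precursor Rn45s added Bcl6 and Gata3, a 99% interval gave 4, without Rora, and a minimum mean of 50 normalized counts gave 4, without Zeb2. The count below 1 was 1 under each alternative tried. The median log2 fold change of the factors lay between 0.26 and 0.35, and that of all genes, an alternative added after seeing the data, between -0.040 and 0.099. For all genes, 1400 were past 2-fold and higher and 383 lower. Without a filter these were 2817 and 1200, with at least 10 reads in both libraries 524 and 223, with that minimum of 50 they were 278 and 141, with a 1.5-fold threshold 2279 and 1014, and with the whole interval beyond 2-fold 604 and 99. Depth limits Bcl6, Prdm1 and Zeb2 most, whose intervals span from 0.976 to 2.25, 0.562 to 1.30 and 1.73 to 6.64.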

Other observations

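Relatives of the lineage factors that are known from other tissues had few reads, and several had more in the TSA library. Tbx5, a T-box factor of heart and limb, had 0 reads in the control and 26 in TSA, at least 8.58-fold higher when the control is set at 3 reads, and Tbx3 had 0 and 19 reads, at least 6.27-fold higher. The exact 95% intervals of these ratios, which also cover the counting error of the TSA reads, reach down to 6.495 and 4.62. Tbx1 had 3 and 15 reads, a ratio of 4.95 (1.40 to 26.7), Rorb, a ROR gene of retina and brain, had 2 and 20 reads, a ratio of 9.90 (2.41 to 87.4), and Gata1, the erythroid GATA factor, had 18 and 40 reads, a ratio of 2.20 (1.23 to 4.08). In the PRDM family, Prdm9, known from meiosis, had 25 and 65 reads, whereas Prdm10 had 39 and 10. The levels of Tbx1, Tbx3, Tbx5 and Rorb lie where high values in the TSA library were common: of the 1610 tested genes whose mean normalized count was under 20, 52% were past 2-fold and higher and 10.3% lower. Tbx1, Tbx3, Tbx5 and Rorb passed the filter of 10 reads through the TSA library alone, so the filter fixed their direction. Gata1, Prdm9 and Prdm10 lie between 20 and 100, where the shares were 18.6% and 4.65%.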
